A study of Mus musculus with 6 samples.

Results

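The planar cell polarity genes described here are 10 genes, named by symbol: Vangl1 and Vangl2, Celsr1, Celsr2 and Celsr3, Fzd3 and Fzd6, and Dvl1, Dvl2 and Dvl3. All 10 were found among the 47643 genes listed for each library. They were read in GFP-positive ependymal cells sorted from the adult mouse ventricular-subventricular zone 2 days after tamoxifen. In the conditional knockout (cKO, 3 libraries) tamoxifen switched on GFP and deleted Ccn1, which encodes a matricellular protein that cells secrete, in ependymal cells, and GFP-positive ependymal cells of control mice, whose alleles the design text does not spell out, made up the other group (3 libraries). The sort gate was placed by hand against the GFP level of wild-type cells. The sources used here do not give the driver of recombination, the exact age and sex of the mice or the number of mice per sample. The labels name the RNA as total in one field and as cytoplasmic in another. Since nothing says that the samples came from separate mice, p-values measure the spread between these samples, which may be technical.

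Planar cell polarity is the alignment of cells, and of the structures they carry, along the plane of a sheet. In the core pathway, Frizzled receptors and Dishevelled gather on one side of a cell and Vangl proteins on the facing side of its neighbour, and Celsr cadherins link both sides across the junction. In ependymal cells, the multiciliated lining of the brain ventricles, this pathway is known to orient the basal bodies, so that the cilia of a cell and of its neighbours beat in one direction. Since these are bulk samples, fewer cells of a type and less RNA per cell cannot be told apart.

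The libraries held 13401499 to 15689579 estimated counts and 12428 to 14496 genes with at least 1 count. Ccn1 stood at 29.8, 17.7 and 38.5 CPM (counts scaled to library size by the TMM method) in cKO cells and at 110, 149 and 142 CPM in control cells. Every library went with its label, with a log2 difference of -2.22 ± 0.38 (SE, unadjusted p = 0.000415 and adjusted p = 0.99999, edgeR quasi-likelihood test). DESeq2 called Ccn1 after the same filter on low counts, with an adjusted p of 2.27e-06. The ependymal identity held in all libraries: 10 of 10 ependymal markers were above 3 counts everywhere, and they summed to 9200 to 9290 CPM in cKO cells and 8730 to 11100 CPM in control cells. Of 7 neuron markers 0 were above 3 counts in every library, Rbfox3 and Slc17a7 were at 0 in all, and the list summed to 0.0 to 21.3 CPM in cKO cells and 10.7 to 11.3 CPM in control cells. Neuroblast markers summed to 9.0 to 19.0 CPM in cKO cells and 17.4 to 62.6 CPM in control cells, microglial markers to 17.5 to 41.5 and 11.5 to 37.4 CPM, and 5 of 6 endothelial markers were at 0 in all libraries. All 7 astrocyte and stem cell markers were present, at 4690 to 5740 CPM in cKO cells and 5160 to 6760 CPM in control cells. Choroid plexus markers summed to 284 to 789 CPM in cKO cells and 495 to 613 CPM in control cells, and oligodendrocyte markers to 392 to 453 and 193 to 609 CPM. Single genes led both sums, Folr1 at a mean of 363 CPM and Cnp at 305 CPM. Of 6 choroid plexus markers 2 were above 3 counts in every library, and Aqp1 was at 0 in all. Of 7 oligodendrocyte markers 3 were above 3 counts in every library, and Mog was at 0 in all. What part cells of other types had in the polarity transcripts was not tested.

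Among the 10 members, Fzd3 was the most abundant, Vangl1 the next, and Celsr3 was at 0 counts in every library. Levels are compared between genes in the deposited TPM, which is scaled for transcript length. The lengths are those of the authors' annotation, which the sources used here do not name. Averaged over the 6 libraries, Fzd3 stood at 25.9 ± 11.4 TPM, Vangl1 at 12.7 ± 5.3, Dvl3 at 5.28 ± 4.37, Fzd6 at 5.25 ± 3.69 and Vangl2 at 3.63 ± 1.76 TPM (SD, n = 6). Dvl1 followed at 1.93 ± 1.93, Celsr1 at 0.983 ± 0.551, Dvl2 at 0.631 ± 1.29 and Celsr2 at 0.255 ± 0.171 TPM. The mean of Fzd3 lay above 80.5% of all 19684 genes that had counts, that of Vangl1 above 72.2%, and those of Celsr1 and Celsr2 above 35.2% and 20.8%. Each neighbouring pair in this order overlapped in its range over libraries, except Celsr2 and Celsr3. Within single libraries Fzd3 was above Vangl1 in 6 of 6, and Vangl2 above Dvl1 in 6 of 6. By contrast, Dvl3 was above Fzd6 in 2 of 6, and Vangl1 above Dvl3, and Fzd6 above Vangl2, in 4 of 6. The 10 genes together summed to 60.2 ± 14.9 TPM in cKO cells and 53.0 ± 4.21 TPM in control cells (SD, n = 3 each), with library values of 43.4 to 72.1 in cKO cells and 48.4 to 56.6 in control cells.

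**Figure D1:**
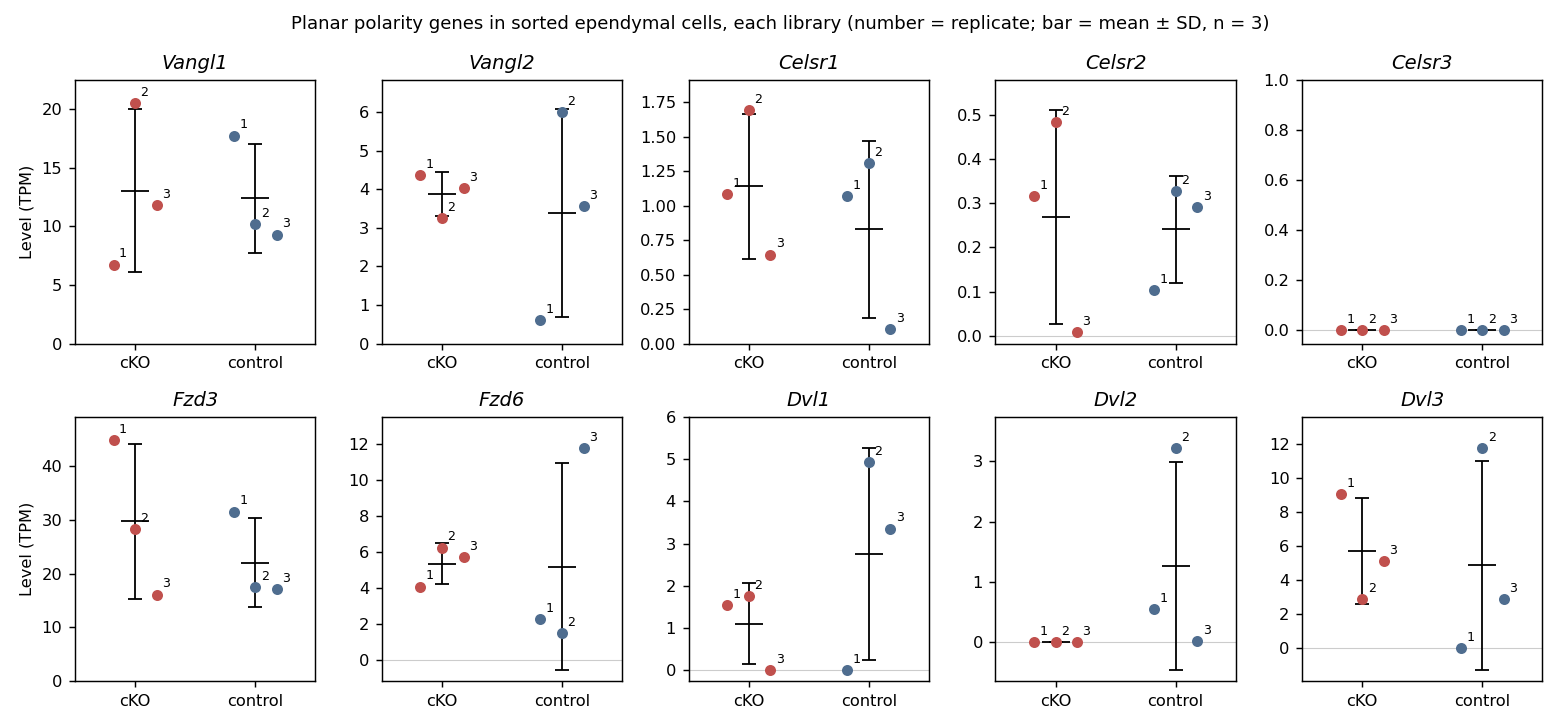
Level of each planar polarity gene in TPM (vertical axis, linear, a scale of its own in each panel) in the 3 cKO and 3 control libraries. Points are libraries with their replicate number and bars are mean ± SD. The cKO and control points overlap in every panel but that of Dvl2, and Celsr3 is at 0 throughout. For Dvl2 all cKO libraries are at 0 and control 3 holds 1 count. Over all 11574 genes tested, 4.62% had cKO libraries wholly below the controls in CPM. Dvl2 did not pass the filter on low counts and is not among these genes.

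The comparison of cKO with control asked whether loss of Ccn1 in ependymal cells went with a change in the polarity components. The edgeR quasi-likelihood test over all genes, after a filter on low counts, took 8 of the 10 members, without Celsr3 and Dvl2. It called 0 of the 8 at a Benjamini-Hochberg adjusted p of 0.05, and 0.0% of all 11574 genes tested were called. The smallest unadjusted p among the 8 was 0.417, so 0 passed 0.05 before adjustment, against 2.75% of all genes (1.43% higher and 1.31% lower in cKO cells). DESeq2 also called 0 of the 8 (1.19% of 11325 genes with an adjusted p, 0.706% higher and 0.486% lower) and limma-voom 0 (0.0% of all genes). Their smallest unadjusted p-values were 0.386 and 0.246, where limma-voom put 5.15% of all genes under 0.05. Of the 8, 0 had cKO and control libraries that did not overlap in CPM, against 9.62% of all genes. The log2 difference was above 0 for 7 of the 8, against 50.3% of all genes, with a median of 0.34 against 0.004 over all genes. Each of these 7 changed sign when 1 library was left out. The median SE of the 8 log2 differences was 1.39, against 1.08 over all genes tested, so the intervals leave room for changes of several-fold in most members.

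Fzd3 is a Frizzled receptor of the core polarity complex, known in mice also for its part in axon tract formation. It maps to chromosome 14, 65192449 to 65262463, on the minus strand (GRCm38, by GENCODE M21, as all coordinates here). It had 2198, 1303 and 792 counts in cKO cells and 1840, 803 and 905 in control cells, which are 159, 96.9 and 58.2 CPM against 122, 58.6 and 57.8 CPM. In each genotype library 1 was the highest, and the cKO 3, control 2 and control 3 libraries were nearly equal. Fzd3 differed by a log2 value of 0.40 ± 0.47 (SE), with a 95% interval from -0.68 to 1.49 (adjusted p = 0.99999, edgeR), and it was -0.035 without cKO 1. This was the narrowest interval among the members, and on a linear scale it runs from 0.623 to 2.8 times the control level.

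Fzd6, the other Frizzled of the core complex, known in mice for the orientation of hair follicles, maps to chromosome 15, 39006034 to 39038188, on the plus strand. It had 195, 280 and 275 counts in cKO cells and 129, 67 and 610 in control cells. The cKO libraries were close together and lay inside the range of the controls, of which control 3 was the highest and control 2 the lowest of all 6. Fzd6 had a log2 difference of 0.074 ± 1.07 (SE, 95% interval -2.40 to 2.55, adjusted p = 0.99999, edgeR), and without control 3 it was 1.45.

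Among all 10 Frizzled genes, Fzd3 alone made up 49.1% to 81.2% of the summed TPM of a library, and Fzd3 with Fzd6 70.5% to 87.0%. The pair held 78.6 ± 8.27% in cKO cells and 82.0 ± 5.45% in control cells (SD, n = 3 each). Of the 8 other Frizzleds, 3 passed the filter. Fzd2 led them at 3.70 ± 2.52 TPM in cKO cells and 3.72 ± 1.81 TPM in control cells, before Fzd1 at 1.75 ± 2.99 and 0.736 ± 0.645 TPM, and Fzd9 and Fzd10 were at 0 in all libraries. Of these 3, 0 were called, and 0 had an unadjusted p under 0.05 (edgeR).

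Vangl1 and Vangl2 encode multi-pass membrane proteins that recruit Prickle proteins and oppose Frizzled and Dishevelled across the cell border, and loss of Vangl2 in mice is known to leave the neural tube open. Vangl1 maps to chromosome 3, 102153583 to 102204693, on the minus strand and Vangl2 on chromosome 1, 172000960 to 172028444 (minus strand). Vangl1 had 348, 1029 and 330 counts in cKO cells and 549, 486 and 399 in control cells. The cKO 2 library stood well above the other 5, which lay close together. Vangl1 had a log2 difference of 0.37 ± 0.62 (SE, 95% interval -1.07 to 1.82, adjusted p = 0.99999, edgeR), and without cKO 2 of -0.39.

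Vangl2 had 247, 208 and 131 counts in cKO cells and 50, 218 and 202 in control cells. Control 1 was the lowest, and the other 2 controls lay within the range of the cKO. Vangl2 had a log2 difference of 0.42 ± 1.25 (SE, 95% interval -2.46 to 3.30, adjusted p = 0.99999, edgeR), and of -0.004 without control 1. Vangl1 held 60.7% to 96.7% of the TPM of the pair, 73.9 ± 12.8% in cKO cells and 77.3 ± 17.4% in control cells (SD, n = 3 each), and it was the more abundant of the pair in all 6 libraries.

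The Vangl genes differed from the other members in how their counts translated into TPM. For a gene read from the same transcripts everywhere, the counts behind 1 TPM stay constant across libraries once library size is corrected. Fzd3, Fzd6, Celsr1, Celsr2, Dvl1 and Dvl3 had a ratio of highest to lowest of 1.0 over the libraries with at least 20 counts, and over 6516 genes with that many counts in all 6 libraries the median ratio was 1.01. Vangl1 had a ratio of 2.06 and Vangl2 of 2.12, where 6.88% of those genes reached 1.5. As a percentage of its highest library, Vangl1 stood at 96.4, 100 and 51.8 in cKO cells and at 48.5, 95 and 74.0 in control cells. Vangl2 stood at 82.5, 100 and 47.1 in cKO cells and at 99.7, 56.6 and 76.3 in control cells. So cKO 3 was low for both genes, control 1 for Vangl1 alone and control 2 for Vangl2 alone. A lower value corresponds to a shorter mean transcript length behind the estimate. GENCODE M21 lists 8 transcripts of Vangl1, of 341 to 6531 bases, and 6 of Vangl2, of 704 to 6528 bases, but the sources used here do not name the annotation of the authors. In TPM, Vangl1 had 6.74, 20.5 and 11.8 in cKO cells and 17.7, 10.2 and 9.30 in control cells, an order that is not that of the counts.

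**Figure D2:**
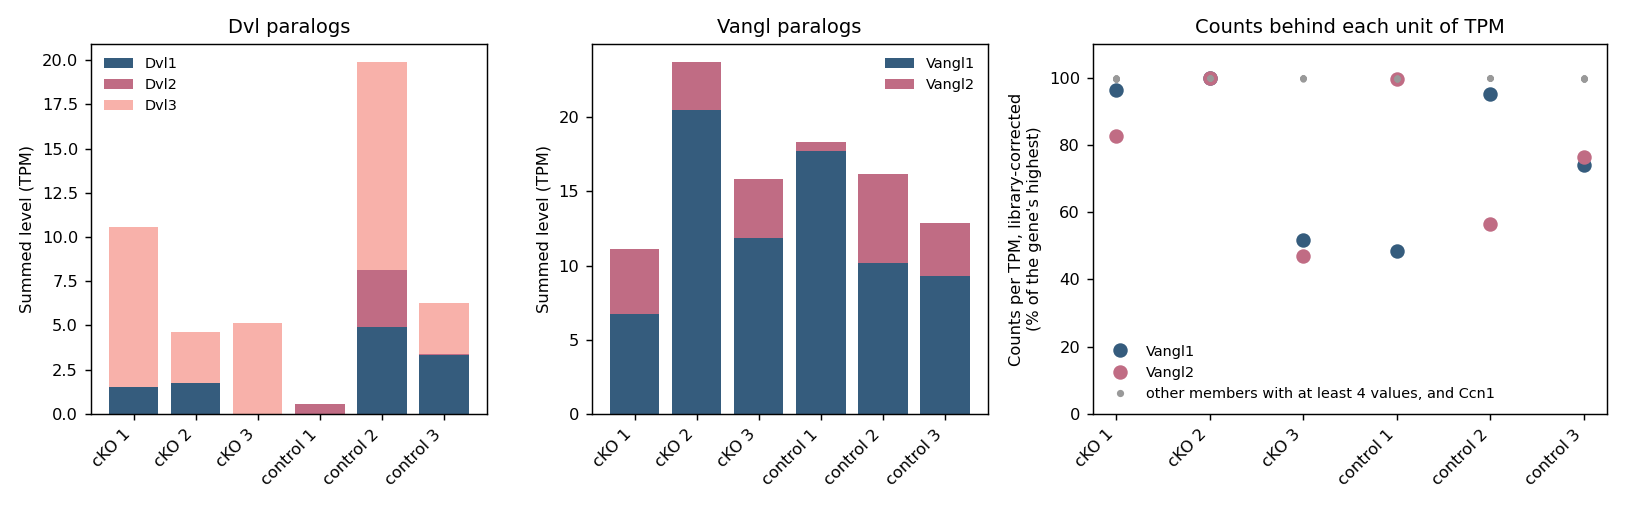
Left and middle, TPM of the Dvl and Vangl paralogs stacked for each library (bars from 0). Right, counts behind 1 TPM after correction for the library, as a percentage of each gene's highest library, where Vangl1 and Vangl2 fall to 48.5% and 47.1% while the other points stay above 99%; Dvl2, with 2 values, is not drawn on the right.

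The Celsr genes encode large atypical cadherins, which bind each other across the cell border and hold the polarity complexes in place. Celsr1 acts in the polarity of many epithelia, and Celsr2 and Celsr3 are known from mutant mice to be needed for the formation and docking of ependymal cilia. Celsr1 maps to chromosome 15, 85898929 to 86033777, on the minus strand. It had 147, 216 and 88 counts in cKO cells and 173, 167 and 15 in control cells, so that control 3 alone stood low. Celsr1 had a log2 difference of 0.43 ± 1.53 (SE, 95% interval -3.11 to 3.97, adjusted p = 0.99999, edgeR), and -0.095 without control 3.

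Celsr2, on chromosome 3, 108390851 to 108415552 (minus strand), was read at a low level throughout. It had 41, 59 and 1 counts in cKO cells and 16, 40 and 41 in control cells, with cKO 3 the lowest and the groups overlapping. The log2 difference was 0.17 ± 1.72 (SE, 95% interval -3.80 to 4.15, adjusted p = 0.99999, edgeR), and its sign turned with the tool, to -0.845 by limma-voom. Celsr3, on chromosome 9, 108826320 to 108852969 (plus strand), had 0 counts in all 6 libraries. A count of 0 allows up to 3 counts, which is 0.217 to 0.223 CPM in cKO libraries and 0.192 to 0.219 CPM in control cells, and this limit covers counting error only. Celsr1 made up 84.7 ± 12.2% of the Celsr TPM in cKO cells and 65.7 ± 34.9% in control cells, where control 3 alone stood at 26%.

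The Dishevelled proteins Dvl1, Dvl2 and Dvl3 are cytoplasmic scaffolds that take the signal from Frizzled receptors into the polarity branch and into the beta-catenin branch of WNT signalling, and they are also found at basal bodies. Which paralogs were read differed between libraries of both genotypes. Dvl3 led in all 3 cKO libraries, and the leading paralog changed among the controls alone. Dvl3 made up 85.4%, 62.3% and 100% of the Dvl TPM in cKO cells and 0.0%, 59.1% and 46.0% in control cells. Dvl1 made up 14.6%, 37.7% and 0.0% in cKO cells and 0.0%, 24.7% and 53.7% in control cells. In control 1 the whole Dvl signal, 0.545 TPM from 23 counts, came from Dvl2. Control 2 held all 3 paralogs at a sum of 19.9 TPM. The cKO libraries summed to 10.6, 4.66 and 5.12 TPM and control 3 to 6.24 TPM, all within the range of the controls.

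Dvl1, on chromosome 4, 155847402 to 155859303 (plus strand), had 60, 64 and 0 counts in cKO cells and 0, 180 and 141 in control cells. Each genotype had a library at 0, and the other 2 controls were higher than any cKO library. The log2 difference was -1.28 ± 2.56 (SE, 95% interval -7.21 to 4.65, adjusted p = 0.99999, edgeR). Dvl3, on chromosome 16, 20516982 to 20534010 (plus strand), had 253, 76 and 144 counts in cKO cells and 0, 309 and 87 in control cells. Its log2 difference was 0.30 ± 2.01 (SE, 95% interval -4.37 to 4.96, adjusted p = 0.99999, edgeR), with the groups overlapping, and 2 of the 6 leave-one-out values were below 0.

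Dvl2, on chromosome 11, 70000595 to 70012301 (plus strand), had 0 counts in all 3 cKO libraries and 23, 118 and 1 in control libraries. Since 4 of its 6 libraries were at 3 counts or fewer, it did not pass the filter and has no place in the main test. Against a floor of 3 counts per cKO library, the control mean of 3.4 CPM is at least 15.4-fold higher, a bound for counting error only. Control 2 carried that mean, and without it the bound was 3.6-fold. Control 3, at 1 count, lay under the same floor and cannot be told apart from the cKO libraries. Over all 11574 genes tested, 4.62% had cKO libraries wholly below the controls in CPM. That share covers genes that passed the filter, so Dvl2 is not among them. With no filter on low counts, Dvl2 had an edgeR unadjusted p of 0.0492 (adjusted p = 0.622), and DESeq2 on all genes with a count gave an adjusted p of 0.236. Its exons overlap the span of the gene Acadvl on the opposite strand, from 70010183, and that of the microRNA gene Mir324 on the same strand. Dvl1 likewise overlaps Tas1r3 on the opposite strand at its end, Vangl1 and Dvl3 overlap antisense RNA genes, and Fzd6 overlaps a divergent noncoding RNA gene. The sources used here do not say whether the libraries keep strand, and reads of such partners cannot be told apart.

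**Figure D3:**
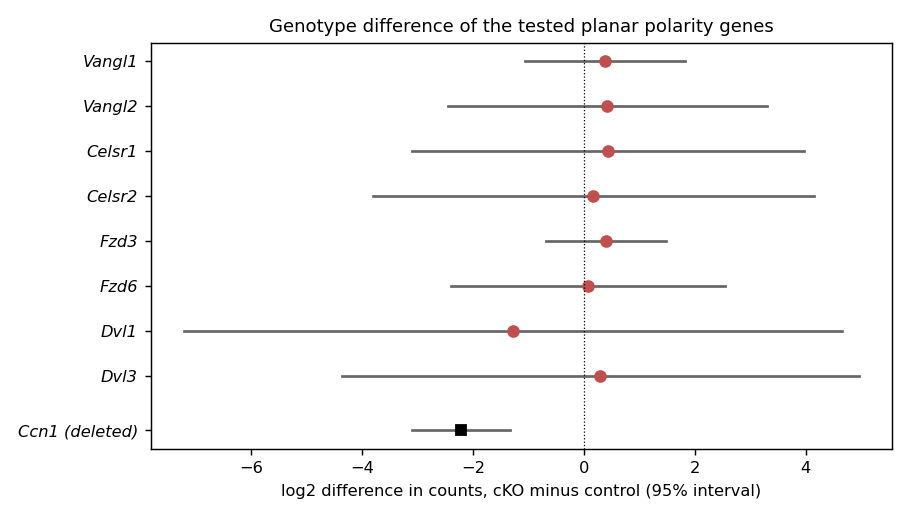
The log2 difference in counts (horizontal axis, cKO minus control) with its 95% interval from the edgeR quasi-likelihood test for the 8 tested planar polarity genes and, as a square, for the deleted gene Ccn1. All 8 member intervals include 0 and that of Ccn1, from -3.10 to -1.34, does not.

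Single libraries missed several members. Above 3 counts were 8, 8 and 6 of the 10 genes in cKO libraries and 7, 9 and 8 in control libraries. The fewest were in cKO 3, which lacked Celsr2, Celsr3, Dvl1 and Dvl2, and the next fewest in control 1, which lacked Celsr3, Dvl1 and Dvl3. The genes with at least 1 count numbered 13666, 14496 and 13816 in cKO libraries and 12428, 14273 and 12989 in control libraries, and the part of library depth or complexity in the missed members was not tested. The lowest value of a tested member fell in cKO 3 for 3 genes, in control 1 and control 3 for 2 each and in control 2 for 1, where a tie at 0 counts for the first library.

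Such misses were common among genes read at like numbers. Among 1936 genes averaging 20 to 50 counts, 48.8% had at least 4 of 6 libraries at 3 counts or fewer, like Dvl2 (mean 23.7). At least 1 such library was found for 92.6% and at least 2 for 84.6%. Celsr2 (mean 33.0) had 1, fewer than most genes of this range. Among 1626 genes averaging 50 to 100 counts, 68.5% had at least 2 such libraries, as Dvl1 did (mean 74.2). Among 1987 genes averaging 100 to 200 counts, 70.7% had at least 1 such library, as Dvl3 did (mean 145), while Celsr1 (mean 134) and Vangl2 (mean 176) had none. Fzd6, Vangl1 and Fzd3 were above 3 counts in all libraries. At least 1 such library was found for 32.8% of genes averaging 200 to 400 counts, 11.4% at 400 to 800 and 0.691% at 800 to 1600, the ranges of these 3 genes.

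The spread over libraries was set against that of other genes read at a like level. With 0.2 CPM added to both values, the highest library of Fzd3 was 2.75 times its lowest, where the median over 1447 genes averaging 800 to 1600 counts was 2.63. For Vangl1 the ratio was 3.14 against a median of 4.28 over 1982 genes, and for Fzd6 it was 7.69 against 14.2 over 2038 genes. In CPM, Vangl2 was steadier than most genes of its level, with a ratio of 5.16 against a median of 98.6. Of those 1987 genes 9.16% had a smaller spread, and 70.7% had at least 1 library at 3 counts or fewer. In TPM, Vangl2 ran from 0.615 to 5.99. Celsr1 had a ratio of 14.0 against the same median, with 18.4% of genes smaller, and Celsr2 of 16.8 against 46.0 over 1936 genes, with 8.37% smaller. Dvl3, with a library at 0, had a ratio of 114, and 62.8% of the 1987 genes had a smaller one. Dvl1 and Dvl2 lay near the medians of their ranges, with ratios of 66.7 against 71.2 and 44.1 against 46.0.

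**Figure D4:**
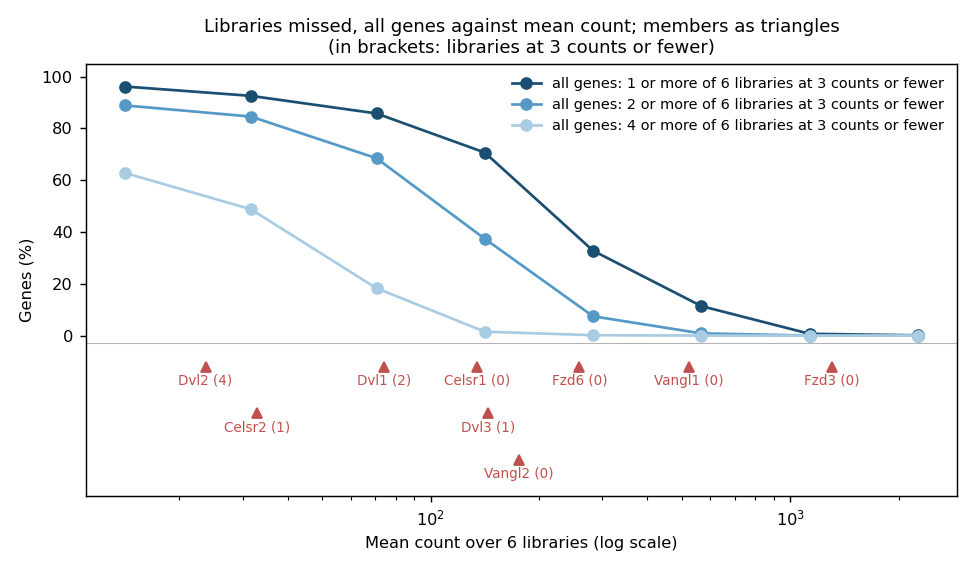
Share of all genes (vertical axis, percent) with at least 1, 2 or 4 of the 6 libraries at 3 counts or fewer, by mean count (horizontal log axis, ranges joined by lines). Triangles below the line mark the members at their own mean count, with the number of such libraries in brackets, and their height has no meaning; Dvl2 missed 4 libraries, Dvl1 2, and Celsr2 and Dvl3 1 each.

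The other genes of the pathway were read from 7 lists of 79 genes, of which 57 were tested. Of the 57, edgeR called 0 after adjustment over all genes, and 2 had an unadjusted p under 0.05, both higher in cKO cells, against 2.75% of all genes (1.43% higher). DESeq2 after the same filter and limma-voom called 0 as well. The log2 difference was above 0 for 33 and below 0 for 24, with a median of 0.075, against 0.004 over all genes tested. The cKO libraries lay wholly above the controls for 4 of the 57, against 4.99% of all genes, and wholly below for 2, against 4.62%.

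Of 13 partners of the core cassette, 7 were tested, 4 with a log2 difference above 0 and 3 below. Prickle2, whose product binds Vangl proteins, had 37.3, 17.0 and 19.9 CPM in cKO cells and 15.0, 0.365 and 3.13 CPM in control cells, so the groups did not overlap in CPM. In TPM they did, with 2.61 in cKO 2 and 4.33 in control 1. The log2 difference of Prickle2 was 2.01 ± 1.43 (SE, adjusted p = 0.99999, edgeR), and 3.82 without control 1. Prickle4 was at 0 in all libraries, and Prickle1 and Prickle3 were each read in 1 cKO library alone, at 11 and 78 counts. The most abundant of this list was Gpc4, a glypican that binds WNT ligands, at 32.3 ± 7.01 TPM in cKO cells and 22.7 ± 9.59 TPM in control cells (SD, n = 3 each), which overlapped.

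The noncanonical WNT ligands and their receptors gave 5 tested genes of 9, 1 with a log2 difference above 0 and 4 below. Wnt4, a secreted ligand of the family, had 48.6, 73.0 and 74.1 CPM in cKO cells and 121, 91.5 and 80.2 CPM in control cells. All 3 cKO libraries lay below all 3 controls, though cKO 3 and control 3 were close. The log2 difference of Wnt4 was -0.58 ± 0.33 (SE, 95% interval -1.33 to 0.17, unadjusted p = 0.112, adjusted p = 0.99999, edgeR). The receptor gene Ror2 was at 0 in all libraries and Ror1 at 1 count in cKO 3 alone.

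Of 13 downstream effectors 12 were tested, 7 with a log2 difference above 0 and 5 below, and their groups all overlapped. The small GTPase genes Cdc42 and Rac1 led the list at 188 ± 27.5 and 131 ± 21.6 TPM in cKO cells and 179 ± 78.0 and 147 ± 28.2 TPM in control cells. Among the 8 tested partners of Dishevelled in canonical WNT signalling, 4 were above and 4 below 0. Gsk3b, a kinase that marks beta-catenin for destruction, had 340, 281 and 343 CPM in cKO cells and 392, 346 and 366 CPM in control cells, groups that do not overlap by a narrow gap. Its log2 difference was -0.20 ± 0.17 (SE, adjusted p = 0.99999, edgeR), and the beta-catenin gene Ctnnb1 stood at 68.8 ± 36.2 TPM in cKO cells and 56.3 ± 10.8 TPM in control cells. The Fat and Dachsous cadherin system gave 4 tested genes of 7, led by Fjx1 at 10.2 ± 1.88 TPM in cKO cells and 6.74 ± 5.44 TPM in control cells, and Fat1 at 2.478 ± 1.41 and 3.272 ± 1.112 TPM.

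The list of cilia orientation and basal foot genes held both pathway genes with an unadjusted p under 0.05, 2 of 18 tested, against 2.75% of all genes (1.43% higher in cKO cells). Of the 18, 12 had a log2 difference above 0 and 6 below, and 3 had cKO libraries wholly above the controls, against 4.99% of all genes. Nin encodes ninein, a protein of the subdistal appendages that anchors microtubules at centrioles. It had 75.8, 56.3 and 96.1 CPM in cKO cells and 33.7, 33.9 and 32.6 CPM in control cells, where the controls were almost equal and the lowest cKO library lay above them. The log2 difference of Nin was 1.19 ± 0.39 (SE, 95% interval 0.29 to 2.08, unadjusted p = 0.0156, adjusted p = 0.99999, edgeR). Left out 1 at a time, the libraries gave 0.978 to 1.36.

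Myh10, the heavy chain gene of a nonmuscle myosin II, a motor known to act in the placing of basal bodies in ependymal cells, had 37.3, 36.3 and 23.9 CPM in cKO cells and 4.76, 10.7 and 7.67 CPM in control cells. The lowest cKO library was more than 2 times the highest control. Myh10 had a log2 difference of 2.08 ± 0.84 (SE, 95% interval 0.13 to 4.02, unadjusted p = 0.0394, adjusted p = 0.99999, edgeR). Odf2, which encodes an appendage protein needed for the basal foot, had 18.9, 28.7 and 49.2 CPM in cKO cells and 3.51, 15.2 and 14.3 CPM in control cells (log2 difference 1.55 ± 0.90, adjusted p = 0.99999, edgeR). DESeq2 after the same filter gave adjusted p-values of 0.0946 for Nin, 0.154 for Myh10 and 0.88 for Odf2. On all genes with a count, a choice made after the data had been seen, DESeq2 called Nin (adjusted p = 0.0205) and Myh10 (adjusted p = 0.00827), where it called 1.69% of 11823 genes (0.939% higher and 0.753% lower). The most abundant of the list, Cby1, which encodes a basal body protein, stood at 134 ± 46.0 TPM in cKO cells and 131 ± 26.7 TPM in control cells, and the kinesin gene Kif3a at 74.3 ± 24.8 and 68.6 ± 17.1 TPM (SD, n = 3 each).

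**Figure D5:**
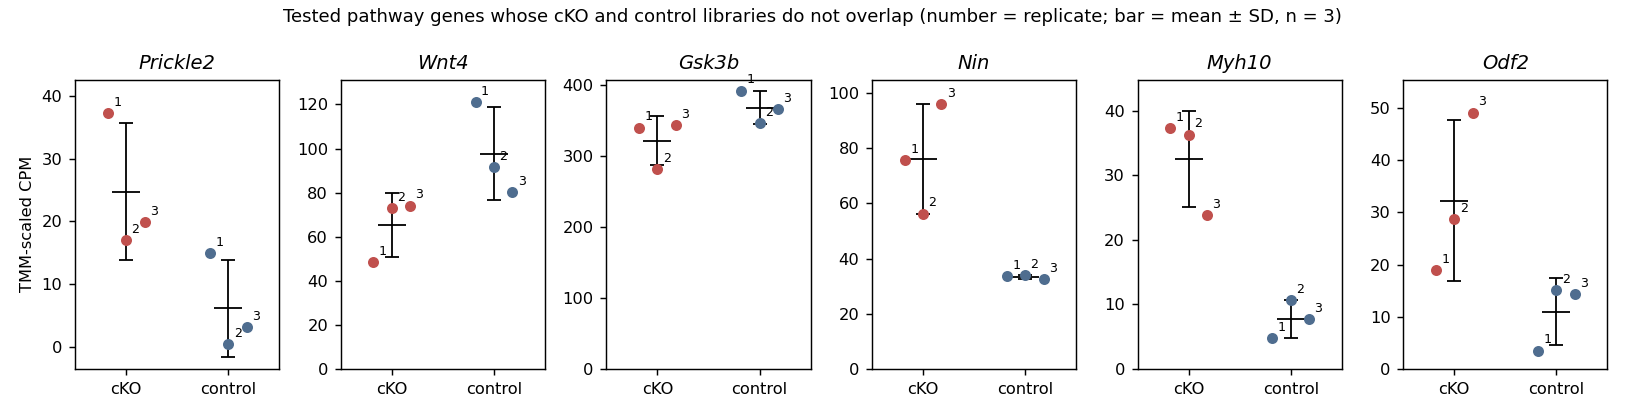
TMM-scaled CPM (vertical axis, linear, a scale of its own in each panel) of the 6 genes, among the 57 pathway genes tested, whose cKO and control libraries do not overlap, with replicate numbers and mean ± SD. Prickle2, Nin, Myh10 and Odf2 are higher and Wnt4 and Gsk3b lower in the cKO libraries, and 0 of the 6 passed adjustment over all genes by edgeR.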

How the data were processed

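The submitters' processing notes name CASAVA 1.8, cutadapt 1.11 and kallisto 0.42.5, a pseudoaligner. The sources used here do not give the genome build, annotation, strand setting or how transcripts were summed to genes. Per the file headers, the deposited values are an estimated count and a TPM value per gene. The authors' estimated counts are not normalized and were rounded here to whole numbers, and the deposited TPM sums to 1000000 in each library. Groups were taken from the sample titles.

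Genes were kept by filterByExpr (11574 of 19684 with a count), scaled by TMM factors, and their counts were tested in edgeR 4.0.16 (quasi-likelihood, robust, genotype as the only term) in R 4.3.3. p-values were adjusted by Benjamini-Hochberg over all tested genes. Intervals are 95% intervals of the fit. Alternatives were DESeq2 1.42.0, limma 3.58.1 (voom, and log2 TPM with 1 or 0.1 added), other scalings and filters, a replicate block, and leaving out each library in turn. The test scripts were checked on simulated counts, with the pass mark set on large changes at a spread far below that of these data. That check does not show what size of change could be found here. Of the list genes, Jhy and Ccn1 were matched by gene ID and the rest by symbol. From each of the 7 wider lists the text names the tested genes whose groups do not overlap in CPM (up to 4, by smallest p) and the 2 with the highest mean TPM, and further genes at or near 0, which were chosen after their values were seen. Members and lists were chosen with earlier results of these data known, so no p is adjusted over a list alone. Coordinates are from GENCODE M21.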

Additional observations from a re-analysis of the deposited data

How the results depend on the processing

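The edgeR count of genes called was 0 in the main test and in every edgeR and limma alternative, the replicate block and the 6 fits without 1 library included. DESeq2 called 135 genes after the same filter and 200 on all genes with a count, a setting added after the data had been seen. In all of these 0 members were called, and of the pathway lists 0 genes, except that DESeq2 on all genes called 2, Nin and Myh10; the cause was not tested. Ccn1 was lower with an unadjusted p under 0.05 in every setting, replicate block included, and DESeq2 called it in both settings. The sign of the member differences was less firm. In 10 alternatives that kept all libraries, 6 of the 8 tested members kept their sign, though sizes moved. Dvl3 was 0.298 in the main test, 2.72 with limma-voom, 1.78 on log2(TPM + 0.1) and 1.4 with the replicate block. The same 3 settings gave 0.532, 0.595 and 0.63 for Fzd6 (0.074 in the main test) and 1.06, 0.748 and 0.959 for Celsr1 (0.432). Vangl1 turned to -0.003 on log2(TPM + 1) and -0.01 on log2(TPM + 0.1); the cause was not tested. Celsr2 turned to -0.845 with limma-voom, -0.128 on log2(TPM + 0.1) and -0.405 with the replicate block; the cause was not tested. Without 1 library each, the log2 differences ran from -0.391 to 0.644 for Vangl1, -0.004 to 0.821 for Vangl2, -0.095 to 0.834 for Celsr1, -0.528 to 0.738 for Celsr2, -0.035 to 0.851 for Fzd3, -0.369 to 1.45 for Fzd6 and -0.284 to 2.05 for Dvl3. Dvl1 stayed below 0, from -1.86 to -0.568. The replicate numbers gave no sign of pairing in the deviations of same-numbered libraries from their group means. These correlated at 0.008, 0.0312 and 0.0152 across 11574 genes. The block called 0 genes, as the main test did, so that count does not bear on pairing. The summed TPM of the members was 7.26 higher in the cKO, and 1.33 to 15.7 higher without 1 library. A library at 0, as for Celsr3, Dvl1, Dvl2 and Dvl3, may hold the transcript below the floor of 3 counts.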

Other observations

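Over the 6 libraries, the genes with a profile nearest to that of Fzd3, among 6164 other tested genes averaging 20 CPM or more, were Mrps25, Zfp428 and Agpat5. The measure was the root mean square difference of log2 CPM after removal of each gene's own mean. It was 0.123, 0.173 and 0.195, against a median of 0.786 over the candidates. These genes were picked for the smallest values, so a gap to the median was fixed by the choice and was not tested. Mrps25, a mitochondrial ribosomal protein gene, had 139, 83.1 and 43.0 CPM in cKO cells and 118, 54.8 and 52.0 CPM in control cells, so that library 1 was the highest in each genotype, as for Fzd3. All values share the same 6 libraries.

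Ankrd6 and Wnt11, named for their high mean TPM within their lists, varied widely from library to library, as did Fzd1, with 2, 241 and 0 counts in cKO cells and 59, 56 and 0 in control cells. Ankrd6, whose product diversin binds Dishevelled, had 217, 288 and 525 counts in cKO cells and 0, 1134 and 87 in control cells, a range in which the controls enclosed all cKO libraries. Wnt11, a ligand of noncanonical WNT signalling, had 677, 358 and 208 counts in cKO cells and 1292, 20 and 0 in control cells. Of the controls, control 1 was at 0 for Ankrd6 and the highest of all 6 libraries for Wnt11.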
